A study of Pimephales promelas with 27 samples.

Results

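The transcripts described here are those behind 200 bright probes whose signal in control ovary explants of the fathead minnow (Pimephales promelas) stayed nearly level between 6 and 12 h of incubation. They were chosen from 15208 non-control probes of an Agilent array by values measured on the same samples. A probe had to be well above background on all 27 arrays, which 10155 probes were. The mean of its SDs within the 6 groups had to be under 0.6 on the log2 scale, which left 8426 probes. Its control mean at 9 h and at 12 h had to lie within 0.15 log2 units of that at 6 h, which left 919 probes. The 200 with the highest mean control level were taken. A level here is the log2 signal of a probe minus the log2 of the 75th percentile of the array's non-control probes, so that 0 is the 75th percentile and each unit is a doubling of brightness.

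Ovary explants from female fish were incubated with dihydrotestosterone (DHT) at 1e-06 M for 6, 9 or 12 h and compared with control explants of the same times. At 6 h there were 5 DHT and 4 control arrays, at 9 h 5 of each, and at 12 h 4 of each. The labels name no vehicle for the controls, no strain and no age. They leave unstated whether replicate explants had different donor fish, so p-values rest on the spread between these samples alone, which may be technical. An explant holds all the cells of the ovary together: fewer cells of a type and less RNA per cell cannot be told apart.

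DHT is an androgen that acts through the androgen receptor, a steroid-activated transcription factor, and aromatase does not convert it to an estrogen. The fish ovary holds growing oocytes, which store large amounts of messenger RNA for the embryo, surrounded by steroid-producing follicle cells. In excised tissue the level of a transcript reflects what is made and what decays, and an oocyte's stored transcripts can persist with little new synthesis.

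The deposited files name each probe by its design ID and a contig or sequence number, without a gene symbol, and none of the array's names matched the RefSeq gene table for the species (0 of 15208). The members are therefore given by probe ID and contig, no role is assigned to any of them, and neither oocyte nor follicle cell markers could be looked up to check the tissue. Brightness also depends on each probe's own sequence, so the order of levels is an order of probe signals and not of transcript abundance. The name of abundant, steady transcripts holds in this limited sense only: bright probes that were steady relative to the 75th percentile.

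The 75th percentile of the arrays ran from 921 to 5709 signal units, and 73.9 to 89.9% of non-control probes were well above background. The 12 h arrays shared no slide or scan day with the earlier times and were dimmer, with 75th percentiles of 921 to 3418, against 2581 to 5709 on the 6 and 9 h arrays. The 3 arrays of 1 slide, 2 of DHT and 1 of control at 12 h, were the dimmest at 921 to 1222. The members kept signals of 2144 to 463994 on every array, and no spot of a member was saturated. Time after 9 h cannot be told apart from slide and scan day in these data.

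The members' mean control levels ran from 2.17 to 6.06, with a median of 2.95. In linear terms the members lay 4.50 to 66.5 times above the 75th percentile, with a median of 7.73. Of the 200, 31 had a level above 4, 61 lay above 3 and up to 4, and 108 were at 3 or less. The brightest stood at place 19 and the dimmest at place 1218 among all probes ordered by control level. The last probe inside the level limit was UF_Ppr_AF_110886 at 2.17, and the first outside it was UF_Ppr_AF_108995 at 2.16.

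Fewer bright probes met the window in the controls than missed it. Of 1215 probes on all arrays at or above the lowest member's level, 203 were steady in the controls (16.7%). The share was lower, 9.60%, over all probes on all arrays. By change alone 983 of the bright probes were left out: 282 for their 9 h mean, 199 for their 12 h mean and 502 for both. The SD limit kept out only 3 further steady probes. The largest control change inside the window was 0.149983, for UF_Ppr_AF_102671, and the smallest outside it was 0.15002, for UF_Ppr_AF_117572. That edge therefore fell between probes of almost equal change. The window was also close to the typical standard error of a member's DHT difference, 0.15 at 6 h and 0.16 at 12 h. A probe could thus miss it without a real change, and a noisier probe more easily.

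The spread of the members within groups was used by the rule and is given as a description. The mean within-group SD of a member was 0.19 at the median and ran from 0.08 to 0.57, against a median of 0.43 over all probes tested. It was under 0.2 for 116 members, over 0.3 for 16 and over 0.4 for 4.

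The control medians of the members could move little over time, because the rule kept only probes whose control means lay within 0.15 of those at 6 h. Array by array, the median over the 200 members lay between 2.95 and 3.07 with DHT and averaged 2.97 ± 0.01 in controls at 6 h (SD over arrays, n = 5 and 4). In the 9 h explants it was 3.03 ± 0.11 with DHT and 2.99 ± 0.06 in controls (n = 5 each), and at 12 h 2.98 ± 0.02 with DHT and 2.96 ± 0.08 in controls (n = 4 each). The single highest array median was 3.20, in DHT replicate 3 at 9 h, and the lowest was 2.89, in control replicate 3 at 12 h. The ranges of DHT and control arrays overlapped at every time. By comparison, the median of all non-control probes stood at -3.14 in DHT and -3.10 in control arrays at 12 h, against -3.46 and -3.44 at 6 h.

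The 5 brightest members carried contig names only. The brightest, UF_Ppr_AF_103014 (contig FJU.1175.C1), had levels of 6.02, 6.41, 6.29, 6.18 and 5.92 in DHT and 5.86, 6.00, 6.18 and 6.21 in control explants at 6 h. At 9 h it had 6.32, 5.92, 6.33, 6.03 and 5.91 with DHT, against 6.01, 5.53, 6.24, 5.82 and 6.19 in controls. At 12 h it had 6.39, 6.38, 6.27 and 6.35 with DHT, against 5.96, 6.15, 6.32 and 6.28 in controls. The 4 DHT values at 12 h lay close together, yet the control range reached into them, and the difference of 0.17 (SE 0.16) did not pass the test (limma adjusted p = 0.999714). Control replicates 2 and 4 at 9 h, its lowest samples, were the arrays with the highest 75th percentiles, 5709 and 5283.

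UF_Ppr_AF_114147 (FJU.778.C1) was the most variable of these 5, with a mean SD of 0.36. Its levels at 6 h were 6.15, 5.79, 6.07, 6.21 and 5.31 with DHT and 6.31, 6.22, 5.91 and 5.76 in controls. At 9 h they were 5.71, 6.07, 5.81, 5.68 and 5.55 with DHT and 5.37, 6.34, 5.97, 6.31 and 5.70 in controls. At 12 h they were 6.04, 6.48, 6.19 and 5.42 with DHT and 6.20, 5.55, 6.58 and 5.67 in controls. High and low samples occurred in both treatments at every time, so its level control mean of 5.99 stands for samples that were not themselves alike.

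UF_Ppr_AF_113037 (FJU.2352.C1) combined a high level with one of the larger mean DHT differences of the group. It had 5.68, 6.35, 6.13, 5.92 and 5.99 with DHT and 5.58, 5.76, 5.98 and 6.00 in controls at 6 h. It had 6.07, 5.80, 6.16, 5.89 and 6.08 with DHT and 6.05, 5.47, 6.25, 5.69 and 6.29 in controls at 9 h. It had 6.33, 6.20, 5.79 and 6.01 with DHT and 5.90, 5.66, 5.78 and 5.63 in controls at 12 h. The groups overlapped at each time. Its mean difference of 0.19 (SE 0.10) over the 3 times depended on the scaling: it was 0.05 after quantile normalization, 0.01 after normexp background correction with quantile normalization, and -0.02 on the authors' deposited normalized values.

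UF_Ppr_AF_112145 (FJU.127.C1) lay between 5.53 and 6.34 in DHT and between 5.54 and 6.36 in control explants over all times. Its mean difference was 0.04 (SE 0.09), and its treatments covered the same range.

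UF_Ppr_AF_106102 (FJU.849.C1) had 5.74, 5.78, 5.65, 5.75 and 5.76 with DHT, against 5.55, 5.67, 5.75 and 5.80 in controls at 6 h. At 9 h it had 6.16, 5.89, 5.96, 5.92 and 5.67 with DHT, against 6.08, 5.32, 6.08, 5.54 and 5.94 in controls. At 12 h it had 6.10, 6.03, 5.89 and 5.87 with DHT, against 5.59, 5.36, 5.68 and 5.72 in controls. Only at 12 h did every DHT sample exceed every control sample. That difference of 0.39 (SE 0.15) had an unadjusted p of 0.0191 and did not pass after adjustment in the limma fit (adjusted p = 0.999714). On the slides that carried both treatments at 12 h the difference was 0.48, from 2 DHT arrays and 1 control array, and 0.18, from 2 of each. The first of these slides held the dimmest arrays.

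The comparison of DHT with control explants asks whether the androgen changed these transcripts. The DHT means did not choose the members, but the control means and the spread within groups did and enter this comparison too. No member was called at 6, 9 or 12 h or for the mean over the 3 times: 0 of the 187 members that entered the limma fit, with a background of 0% of 13714 probes called in each of the 4 comparisons. The other 13 members carried a non-uniformity or outlier flag on at least 1 array and were left out of the fit. At an unadjusted p under 0.05 the counts of members were 0, 1 and 4 at 6, 9 and 12 h and 3 for the mean. The matching shares of all probes were 0.43%, 2.63%, 2.78% and 5.18%, so that 4 of 187 (2.14%) and 3 of 187 (1.604%) were no more than the background. The 1 at 9 h was UF_Ppr_AF_108636, at -0.35, and those at 12 h were UF_Ppr_AF_106102, UF_Ppr_AF_113014, UF_Ppr_AF_101743 and UF_Ppr_AF_115680, at 0.39, -0.47, -0.29 and -0.29. For the mean they were UF_Ppr_AF_106102, UF_Ppr_AF_113014 and UF_Ppr_AF_102132, at 0.19, -0.27 and 0.28. Of these, UF_Ppr_AF_108636, UF_Ppr_AF_101743 and UF_Ppr_AF_115680 are named after their values were seen. At 6, 9 and 12 h the shares of all probes were below the proportion of 0.05 that p-values give on average when nothing differs. The fit may therefore be conservative at single times, and a lack of calls there does not show a lack of change. The reason was not tested. A test of whether the DHT difference changed between times called 0 members as well, with 0% of all probes called, and 0 members had an unadjusted p under 0.05 there (74 of all probes).

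The fitted differences of the 187 members were small. At 6 h they ran from -0.17 to 0.22, and the largest estimate was 1.17-fold in either direction. At 9 h they ran from -0.36 to 0.28 (largest estimate 1.28-fold), and at 12 h from -0.47 to 0.41 (largest estimate 1.39-fold). The mean over the 3 times ran from -0.27 to 0.28 (largest estimate 1.21-fold). The typical standard error of a member was 0.15, 0.14 and 0.16 at the 3 times, against 0.31, 0.29 and 0.32 over all probes. Part of this difference follows from the rule, which limited the SD of the members.

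For the mean over the 3 times, the 95% interval lay wholly within a 1.25-fold change for 153 of 187 members (81.8%). The same was so for 646 of 950 other bright probes tested (68.0%) and for 20.1% of all probes. The width of an interval depends on the spread within groups, which was limited for the members and the other bright probes alike. The contrast with all probes therefore follows in part from the choice of members. The 950 are probes whose control means missed the window, and those means enter the DHT differences too. The contrast with the 950 is therefore not independent of the rule. At single times the narrow bound was met less often, by 54, 43 and 18 members at 6, 9 and 12 h. A 1.5-fold change lay outside the interval of 173, 175 and 156 members. A 2-fold change lay outside that of 187, 187 and 186. At a single time the interval of most members reached past 1.25-fold.

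The middle of the members' differences was close to 0 and its sign depended on the scaling. The median was 0.03 at 6 h, 0.04 at 9 h and 0.002 at 12 h, beside -0.01, -0.02 and -0.02 over all probes tested. Positive differences were held by 111, 124 and 95 of 187 members, beside 46.4%, 47.0% and 47.1% of all probes tested. The 950 other bright probes tested had medians of 0.001, 0.05 and 0.01 at these times. At 9 h the members' median was -0.004 after quantile normalization and 0.005 after normexp with quantile normalization. It was -0.06 on the deposited values, where 47 of 187 members were positive. Within single slides at 9 h, the members' median was 0.10, -0.03, 0.09 and -0.03 on the 4 slides with both treatments. At 6 h the 1 such slide gave 0.03, and at 12 h the 2 such slides gave 0.01 and -0.01.

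The brightest members stood slightly higher with DHT under the scaling of the rule. Of the 29 tested members with a level above 4, 24 had a positive mean difference, with a median of 0.08. Of the 60 members above 3 and up to 4, 39 were positive (median 0.03), and of the 98 at 3 or less 56 were (median 0.02). The same 29 had a median of -0.01 with 14 positive after quantile normalization, -0.02 with 13 positive after normexp, and -0.08 with 2 positive on the deposited values. No direction of the brightest members therefore holds across the scalings.

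Members named for the largest mean differences are a description, since that difference chose them. UF_Ppr_AF_102132 (FJU.9388.C1) was the highest. It had 2.70, 2.17, 2.98, 2.37 and 2.56 with DHT against 2.21, 2.55, 2.41 and 2.16 in controls at 6 h, and 2.41, 2.02, 2.78, 2.63 and 2.96 against 2.56, 1.72, 2.15, 2.40 and 2.98 at 9 h. At 12 h it had 2.59, 2.71, 2.45 and 2.85 with DHT, against 2.17, 2.24, 2.51 and 2.04 in controls. The treatments overlapped at each time, at 12 h by 1 sample of each. Its mean difference was 0.28 (SE 0.13), and it lay between 0.25 and 0.32 under the other scalings.

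UF_Ppr_AF_113014 (FJU.5473.C2) had the lowest mean difference, -0.27 (SE 0.11). Its levels were 3.37, 2.83, 2.51, 2.66 and 2.82 with DHT against 2.83, 2.89, 3.36 and 2.90 in controls at 6 h. They were 2.97, 2.95, 2.28, 2.71 and 2.66 with DHT against 2.96, 3.22, 2.35, 3.14 and 2.75 in controls at 9 h. At 12 h they were 2.33, 2.18, 2.51 and 2.60 with DHT, against 2.87, 2.96, 2.67 and 3.01 in controls. All DHT samples lay below all controls at 12 h, where the difference was -0.47 (SE 0.20), and the groups overlapped at 6 and 9 h. With slide as a fixed block its mean difference was -0.19 (limma unadjusted p = 0.169). Within slides at 12 h the difference was -0.61, with 1 control array on that slide, and -0.29. Within slides at 9 h it was -0.12, 0.61, -0.65 and -0.10, and on the 1 slide with both treatments at 6 h it was -0.05. The direction within slides was therefore not the same throughout.

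UF_Ppr_AF_117019 (FJU.1312.C2) came next, with a mean difference of -0.18 (SE 0.13). At 6 h it had 3.02, 3.30, 2.33, 3.35 and 3.11 with DHT, against 3.34, 2.46, 2.95 and 2.91 in controls. At 9 h it had 2.74, 3.15, 2.26, 2.28 and 2.24 with DHT, against 2.81, 3.37, 2.76, 3.13 and 2.39 in controls. At 12 h it had 2.83, 2.58, 2.78 and 2.76 with DHT, against 2.99, 3.04, 2.92 and 3.21 in controls, and there the ranges did not overlap.

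Complete separation of the treatments was rare among the members and over all probes alike. DHT and control ranges did not overlap for 1 of 187 members at 6 h and 1 at 9 h (0.535% each), where 0.211% and 0.109% of all probes separated. These 2, named after their values were seen, were UF_Ppr_AF_103317, with 2.54 to 2.58 in DHT and 2.42 to 2.50 in control samples at 6 h, and UF_Ppr_AF_112845, with 2.85 to 2.92 in DHT and 2.64 to 2.77 in control samples at 9 h. At 12 h the treatments did not overlap for 4 of 187, where 2.37% of all probes separated, a share close to the members' own 2.14%. Besides the 3 members above, the fourth at 12 h was UF_Ppr_AF_101520 (FJU.671.C1), named after its values were seen. It had 4.78, 4.97, 4.64 and 4.65 with DHT, against 4.57, 4.46, 4.58 and 4.60 in controls.

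The DHT explants over time show how far the steadiness found in the controls extended to samples that did not choose the members by their means. Of the 200 members, 151 (75.5%) had a DHT mean at 9 h within 0.15 of that at 6 h, 120 (60.0%) had a 12 h mean within it, and 91 (45.5%) had both. Of the 983 other bright probes 28.2% were within the window at 9 h, 40.7% at 12 h and 15.5% at both. Of all 919 probes that were steady in the controls, the members included, 62.7% were within it at 9 h, 61.2% at 12 h and 38.2% at both, and of all 10155 probes on all arrays 10.9% were within it at both times. The 983 had been left out for control means outside the window, so the 919 are the closer comparison. Beside the 919 the members' shares were higher at 9 h and at both times and slightly lower at 12 h. No difference between these shares was tested. The DHT samples enter the limit on SD, and DHT and control samples of the same time share slides and scan days.

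Between times with DHT, the limma fit on all arrays, controls included, called few members. For 9 h against 6 h no member was called, with 0.795% of all probes called (0.328% higher and 0.467% lower). For 12 h against 6 h no member was called, with 10.8% of all probes called (9.66% higher and 1.12% lower). For 12 h against 9 h 1 member was called lower, with 16.1% of all probes called (13% higher and 3.15% lower). Among 950 other bright probes 27, 50 and 71 were called in these comparisons (2.84%, 5.26% and 7.47%). Those 950 had missed the window in the controls, and DHT and control samples of the same time share slides and scan days. Fewer calls among the members than among the 950 therefore follow in part from the rule. Calls among all probes steady in the controls, the closer comparison, were not counted. The 3 comparisons share DHT arrays with one another. At an unadjusted p under 0.05, 4 members (UF_Ppr_AF_103027, UF_Ppr_AF_116549, UF_Ppr_AF_118283 and UF_Ppr_AF_117019) passed at 9 h against 6 h and 7 at 12 h against 6 h, beside 14.8% and 22.8% of all probes. At 12 h against 9 h 10 members (5.35%) passed, beside 27.7% of all probes. Of the 4 members listed, UF_Ppr_AF_103027, UF_Ppr_AF_116549 and UF_Ppr_AF_118283 are named after their values were seen. The ranges of the DHT samples did not overlap for 0 members at 9 h against 6 h and for 7 at 12 h against 6 h (2 higher, 5 lower), where 3.54% and 14.5% of all probes separated.

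The median change of the members with DHT was -0.002 at 9 h against 6 h, -0.03 at 12 h against 6 h and -0.05 at 12 h against 9 h. All probes tested shifted by -0.04, 0.09 and 0.12 in the same comparisons. Relative to that shift the members stood at 0.04, -0.11 and -0.17. After quantile normalization the last 2 were 0.08 and -0.002, so that the direction of the members relative to all probes at 12 h against 6 h turned with the scaling. Within the slides holding DHT arrays of both times, the members' median at 9 h against 6 h was -0.03 on one slide and 0.06 on another. No slide held DHT arrays at 12 h and an earlier time.

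The member called was UF_Ppr_AF_102550 (FJU.1478.C1). It had 1.93, 2.12, 2.197 and 2.198 with DHT at 12 h, against 2.49, 2.39, 2.48, 2.48 and 2.59 with DHT at 9 h. The ranges did not overlap, as for 5 of 187 members and 15.8% of all probes in this comparison. The other 4, seen after the fact, were UF_Ppr_AF_117898, UF_Ppr_AF_112489 and UF_Ppr_AF_100156, with changes of -0.26, -0.19 and -0.34, and UF_Ppr_AF_117840, with 0.23. The levels of UF_Ppr_AF_102550 with DHT at 6 h were 2.47, 2.21, 2.48, 2.48 and 2.30. Control explants had 2.33, 2.17, 2.46 and 2.10 at 6 h. They had 2.35, 2.31, 2.51, 2.13 and 2.45 at 9 h and 2.04, 2.37, 2.27 and 2.13 after 12 h. The change of UF_Ppr_AF_102550 with DHT at 12 h against 9 h was -0.37 (SE 0.12, limma adjusted p = 0.0281). DHT and control explants at 12 h overlapped and differed by -0.09 (SE 0.12).

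The change was negative in every setting, while the call depended on the setting and on single samples. The call was lost on the deposited values (adjusted p = 0.0522), with only the DHT arrays of the 2 times in the fit (0.134), and without DHT replicate 4 (0.0527) or 5 (0.0633) at 9 h, or DHT replicate 1 (0.107) or 2 (0.0591) at 12 h. In these fits the change was -0.31 to -0.38. The change was larger after normexp with quantile normalization, -0.66 (adjusted p = 0.000791). In that setting 12 of 187 members were called at 12 h against 9 h, 3 higher and 9 lower, beside 14.8% of all probes.

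The steadiness itself was measured relative to 1 scaling. Under the rule's scaling the members' median control change at 12 h against 6 h was -0.04, beside 0.12 for all probes tested. With levels taken relative to the array's median in place of its 75th percentile, it was -0.38, beside -0.23 for all probes. That scaling moves every probe of an array by the same amount and leaves the members' difference from all probes at -0.16. The shift at 12 h was wider than the window, so that 0 of the 200 members within it followed from the choice of scaling and says nothing about these members. After quantile normalization the control means of 119 members stayed within the window, and 97 members were again among the rule's 200. After normexp with quantile normalization 116 and 92 did so, and on the deposited values 74 and 59. In those 3 settings the members' median control change at 12 h was 0.07, 0.09 and 0.10, in the opposite direction. The steadiness is therefore stated relative to the array's 75th percentile only.

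The choice of members also depended on single control samples. When 1 control array was left out, 142 to 179 of the 200 were found again. The lowest overlap, 142, came without control replicate 1 or 4 at 6 h, and every control array at 6 h left at most 144.

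A mean that did not move could hide samples that did. UF_Ppr_AF_106713 (FJU_SB_30.435.C3), named after its values were seen, had the largest mean SD inside the limit, 0.57, and the next steady bright probe outside it was UF_Ppr_AF_105087 at 0.67. The levels of UF_Ppr_AF_106713 were 4.12, 3.81, 2.89, 4.72 and 4.63 with DHT and 4.55, 2.93, 4.24 and 3.97 in controls at 6 h. At 9 h they were 4.45, 3.94, 3.94, 3.27 and 3.75 with DHT and 4.36, 3.26, 3.73, 4.40 and 3.73 in controls. At 12 h they were 4.68, 3.89, 4.28 and 4.17 with DHT and 4.91, 3.11, 3.78 and 4.18 in controls. Low samples occurred in both treatments, and the control means agreed to within the window although single controls differed by over 1 log2 unit.

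UF_Ppr_AF_108811 (FJU.3732.C1), also named after its values were seen, had the next largest SD, 0.44. At 6 h it had 3.31, 2.68, 3.47, 3.16 and 3.24 with DHT and 3.29, 3.47, 3.29 and 2.85 in controls. It had 3.54, 3.70, 2.33, 3.49 and 3.28 with DHT and 3.60, 3.64, 3.82, 2.10 and 3.44 in controls at 9 h. At 12 h it had 3.60, 3.35, 3.32 and 2.67 with DHT and 3.57, 3.64, 3.56 and 2.67 in controls. In each of these groups 1 sample stood below the rest. The lowest DHT and control samples lay on the same slide at 9 and at 12 h, beside others that were not low, and on different slides at 6 h. Whether slide bears on this probe was not tested.

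Some arrays of opposite treatment shared part of their deviations. Deviations here were taken from a probe's mean over all arrays of the same time, DHT and control together, so a treatment difference stays in them. A DHT and a control array of the same time were paired on the deviations of the probes that are not members. Each had to be the other's best match, with a correlation above 0.5, and arrays without such a match stayed unpaired. In the 9 pairs found, the members' own deviations correlated at 0.19 to 0.79 (Pearson's r over members, which are not independent and share array and scaling). The pairs were chosen for correlation on the same arrays, so positive values among the members follow in part from that choice. Both arrays of every pair at 9 h lay on the same slide, while at 6 and 12 h some pairs shared a slide and others did not. For pairs on the same slide, a shared slide and a shared donor cannot be told apart. In 1 of the 9, DHT replicate 2 at 9 h, the members correlated more with another control (0.63) than with the matched one (0.38). With these pairs as a random block the fit called 0 members for DHT at each time, beside 0.0146%, 0% and 0.109% of all probes at 6, 9 and 12 h.

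The probe names give the only other property of the members. Of the 200, 199 were named for an assembled contig and 1 for a sequence number, against 78.0% contig names over all non-control probes and 96.7% among other bright probes. Names marked rc were held by 28 members (14.0%), against 21.4% of all probes and 15.7% of other bright ones. The class of 710 probes whose names end in _ms had no member, and 216 of those (30.4%) were above background on all arrays. This class made up 4.67% of all non-control probes but only 4 of 983 other bright probes (0.41%). For 11 members a second probe of the same contig was on the array, each of this class. Of these second probes 5 were above background on all arrays, and none of the 5 was within the window of the rule. The control levels of the 5 were -5.76 to -4.01, while no member lay below 2.17. They are therefore not readings comparable in brightness with those of the members.

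Contigs that share a number but not a suffix may come from related sequences, which the files do not state. There were 42 members of that kind, with 65 other probes. Of the 54 of these that were on all arrays none was a member, where members made up 1.97% of all probes on all arrays, and 8 (14.8%) were steady in the controls, against 9.60% of all probes on all arrays and 16.7% of bright ones.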

How the data were processed

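RNA of 27 ovary explant samples was hybridised on 1-colour Agilent arrays, 1 per array. The labels give TRIzol extraction and a check of RNA integrity before hybridisation. Per the file headers, signals came from Agilent Feature Extraction 10.7.1.1. Its deposited processed signal is a background-corrected intensity on a linear scale, and the outlier, saturation and detection flags are deposited as 0 or 1. The authors also deposited a log2 value table, whose columns had medians of 8.21 to 8.30 and correlated with log2 processed signal at 0.998 at the lowest. How it was normalized is not given in the sources used here.

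Log2 processed signal minus the array's 75th percentile over 15208 non-control probes was analysed in R 4.3.3 with limma 3.58.1 (lmFit, eBayes) in 1 model of 6 group means. Probes with a non-uniformity or population outlier flag on any array, or well above background on fewer than 4 arrays, were left out, which left 13714 probes (187 of the 200 members). P-values were Benjamini-Hochberg adjusted over all of them, with 0.05 as the threshold. No adjustment was made over the members alone. The script was tested on simulated data. The number of arrays limits the precision.

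Samples were grouped by their labels, and replicates were numbered in the order of the deposited samples, so the numbers pair nothing. Members and lists were chosen with earlier results of these data known. Members named in full were the 5 of highest control level, the 2 with the highest and the 2 with the lowest mean DHT difference, those called, and the probes at the limits of the rule; others are said to be named after their values were seen. Planned lists of named genes and cell markers could not be used, because no table pairs probes with genes. Alternatives were quantile normalization, normexp (offset 50, on the median spot and background signals, where mean signals had been planned), the deposited log2 values, other filters, slide, scan day and inferred pairs as blocks, fits on the compared arrays alone, and fits without each array in turn. Keeping flagged probes was added after seeing the data. Summaries were made with Python 3.11.15.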

Additional observations from a re-analysis of the deposited data

Results flagged for a closer look

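Among 60 combinations of a group with 1 of 9 named members or with the members' median level, 1 held a sample far from the others: for UF_Ppr_AF_113014, control replicate 3 at 6 h had a level of 3.36, while the other 3 controls lay between 2.83 and 2.90. The gap to the nearest of the others was 0.866 of the group's whole range, above Dixon's 95% critical value for 4 samples. Chance flags about 1 in 20 groups, so 1 of 60 is no more than it gives. The 9 named members did not include UF_Ppr_AF_108811, so the count does not cover the low samples described for that probe. This sample enters the 6 h mean of the member with the lowest mean DHT difference.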

How the results depend on the processing

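The count of members called for DHT against control was 0 at 6, 9 and 12 h and for the mean over the 3 times in all 11 other settings and without each array in turn, and so was that for DHT at 9 h against 6 h. The median DHT difference at 9 h was -0.0556 on the deposited values, against 0.04. For DHT at 12 h against 6 h the count was 2 after normexp and 1 with inferred pairs as a random block (8.46% and 9.41% of all probes), against 0, and the median was 0.0616 after quantile normalization and 0.0771 on the deposited values, against -0.03. For DHT at 12 h against 9 h the count was 12 after normexp, 2 with inferred pairs, and 0 on the deposited values or with only the arrays compared (14.8%, 13.9%, 13.2% and 13.0% of all probes), against 1. Leaving out single arrays it ran from 0 (without DHT replicate 4 or 5 at 9 h, or 1 or 2 at 12 h) to 2 (without DHT replicate 2 at 9 h or 4 at 12 h). The rule found again 97 members after quantile normalization, 92 after normexp, 59 on the deposited values and 0 relative to the median, the last fixed by a shift common to all probes that exceeds the window. The causes were not tested. Slide or scan day as a fixed block gives no value for 12 h against earlier times, since the 12 h arrays have slides of their own. No paired analysis was possible because the labels give no replicate numbers; the pairs used were inferred from the arrays. The correlation within blocks was 0.14 for slide and 0.71 for the inferred pairs, which were chosen for their correlation. No named gene could be checked.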
